A study of Mus musculus with 2 samples.

Results

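Cytosolic ribosomal proteins were examined in testes of homozygous mutant (Mili-/-) and heterozygous (Mili+/-) mice at day 10 after birth. The members were the genes with a probe set annotated to exactly 1 symbol of the Rpl, Rplp or Rps series or to Rpsa, without the Rps6k kinases and without symbols that mark pseudogenes, and each gene was read by its brightest such probe set. The rule gave 35 of the 8251 genes named on the array, 17 of the large and 18 of the small subunit. Of the 35, RefSeq types 34 as protein coding and 1, Rps4l, as a transcribed pseudogene, which the rule keeps because of its symbol.

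Each genotype is represented by polyadenylated RNA on 1 single-colour Affymetrix mouse array. The number of mice behind an array, their strain and the part of the gene that the mutant allele lacks are not stated in the labels. The Piwil2 gene encodes MILI, a Piwi protein of germ cells that is guided by small RNAs, and per the labels spermatogenesis in the mutant stops early in meiotic prophase, with dying cells first seen 1 day after the age sampled. No probe set was assigned to Piwil2 alone, and the genotypes could not be checked on that transcript.

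Ribosomal proteins assemble with ribosomal RNA into the large subunit, which joins amino acids, and the small subunit, which reads the mRNA. Most of their mRNAs begin with a run of pyrimidines, the terminal oligopyrimidine (TOP) tract, through which growth signals regulate their translation together. In testis some of them have paralogs that are used mainly by germ cells, and spermatogonia raise protein synthesis as they differentiate.

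All differences below are log2 signal of Mili-/- minus Mili+/-, after each array was centred on its median signal. A gene was compared when at least 1 array reached its own median signal, 41.5 in Mili-/- and 38.5 in Mili+/-, which left 5095 genes with a median difference of -0.13. Of the 35 members, 26 passed, and all 26 did so on both arrays. With 1 array per genotype no test across replicates was possible, and the values describe these arrays. Probe sets that read the same gene share the samples and hybridisations, so their spread does not stand in for replicate error. Their SD was 0.31 (log2) over 720 genes, taken over probe sets past the filter. The SD was 0.09 over the 6 genes with more than 1 probe set of at least 1000 on both arrays. Dimmer probe sets of those 6 genes were left out of it.

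The ribosomal protein genes were nearly level between the genotypes. The 26 members had a median difference of -0.06, and their quartiles were -0.20 and 0.05. None was 1.5-fold higher or lower in Mili-/-, and of all genes compared 2.47% passed that fold upward and 5.04% downward, shares that amount to few genes among 26. None was 2-fold changed either, against 0.314% of all genes higher and 0.53% lower. Of the 26, 17 lay above the median difference of all genes, which 50.0% of genes do by definition, and 10 lay above 0, against 31.1% of all genes. That side depended on scaling, since 16 of the 26 lay below the median of all genes after quantile normalization and 14 after a loess fit on signal. The extremes were Rpl37a at 0.21 and Rps4l at -0.54.

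The members were also split by signal. Of the 26 members, 17 had signals of at least 1000 on both arrays, and they had a median difference of -0.04 with an SD across genes of 0.12. The 117 other genes that bright had a median of -0.05 and an SD of 0.14, and 0 of them were 1.5-fold higher or lower, so the lack of such calls was shared with other bright genes. The 9 members with a signal under 1000 had a median of -0.12 and a wider SD of 0.25. Across the 26 members the difference showed little relation to mean log2 signal (Pearson r = 0.04, Spearman rho = 0.11, n = 26 genes measured on the same 2 arrays).

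**Figure D1:**
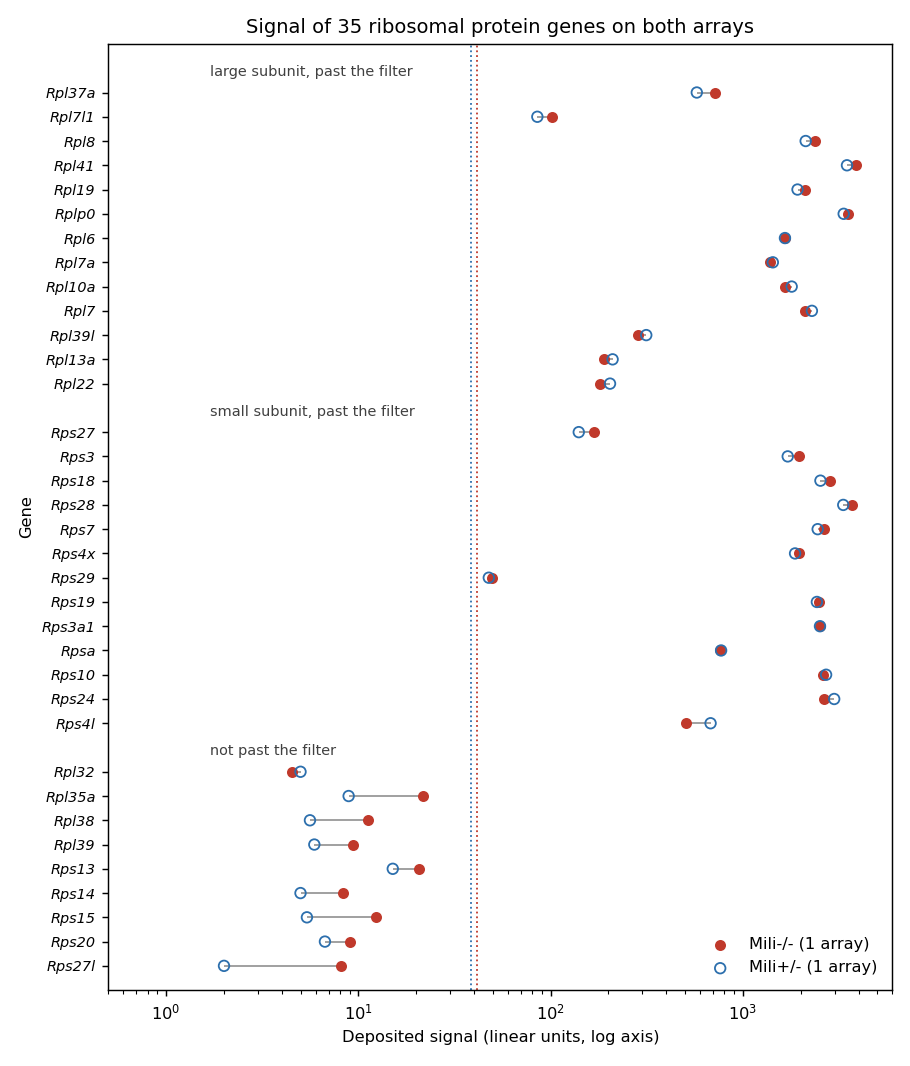
Deposited signal (linear units on a log axis) of the 35 ribosomal protein genes, with filled red points for the Mili-/- array and open blue points for the Mili+/- array. Genes past the filter run from the highest to the lowest centred difference within each subunit, and the 9 others follow in order of name. The dotted lines mark the median signal of each array (41.5 in Mili-/- and 38.5 in Mili+/-). The points of most of the 26 genes past the filter nearly coincide, and the 9 genes that did not pass lie at signals of 21.8 or less.

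Among the large subunit genes, 13 of 17 passed the filter, with a median difference of -0.11 and a range of -0.29 to 0.21. Rpl37a, which encodes a small zinc-binding protein, gave 720 signal units in Mili-/- and 576 in Mili+/-, a difference of 0.21 or 1.16-fold. Rpl8, whose protein lies near the peptidyl transferase centre, had 2379 in Mili-/- and 2122 in Mili+/- (0.06). Rplp0, the base on which the acidic stalk proteins that recruit elongation factors are mounted, had 3512 in Mili-/- and 3346 in Mili+/- (-0.04). These 3 genes were brighter on the Mili-/- array as deposited, and centring brought Rplp0 just under 0. Rpl19 (2117 in Mili-/- and 1925 in Mili+/-, 0.03) and Rpl41, which encodes a very short basic peptide (3871 in Mili-/- and 3480.4 in Mili+/-, 0.04), stood close to 0, and Rpl6 stood at -0.11. The probe set of Rpl41 has a suffix that marks sequence shared within a gene family.

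The lower end of the large subunit held Rpl22, an RNA-binding protein outside the catalytic core, with 180 in Mili-/- and 204 in Mili+/- (-0.29). Its second probe set was under the filter at 31.0 in Mili-/- and 29.4 in Mili+/- (-0.03). Rpl13a, whose human protein also takes part in translational silencing of inflammatory mRNAs, had 190 in Mili-/- and 210.1 in Mili+/- (-0.26). Rpl7 had 2100.3 in Mili-/- and 2286 in Mili+/- (-0.23), and Rpl7a stood at -0.17. Rpl10a had 1666 in Mili-/- and 1794 in Mili+/- (-0.22), and its second probe set, at 1061 in Mili-/- and 1242 in Mili+/-, stood at -0.34. Both bright probe sets of Rpl10a were thus lower on the Mili-/- array, but the second has a suffix that marks sequence shared within a gene family.

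Among the small subunit genes, 13 of 18 passed, with a median of -0.05 and a range of -0.54 to 0.15. Rps27, a zinc-binding protein, had 168 in Mili-/- and 140.1 in Mili+/- (0.15). Rps3, which lines the entry of the mRNA channel, had 1957 in Mili-/- and 1712 in Mili+/- (0.08), and Rps18, a protein of the subunit's head, had 2826 in Mili-/- and 2532 in Mili+/- (0.05). These were the highest small subunit genes, and the largest ratio among them, that of Rps27, was 1.11-fold after centring.

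Rps28 was read by a pair of bright probe sets that differed little, the brighter of which has a suffix that marks sequence shared within a gene family. The brighter had 3710.3 in Mili-/- and 3328 in Mili+/- (0.05), and the other had 2953 in Mili-/- and 2785 in Mili+/- (-0.03). A further probe set of Rps28 under the filter had 28.8 in Mili-/- and 12.5 in Mili+/-. Over Rpl10a and Rps28, the only members for which several probe sets passed, the SD within a gene was 0.07.

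Other small subunit genes lay between -0.16 and 0.01. Rps19, mutated in human Diamond-Blackfan anaemia, had 2489 in Mili-/- and 2427 in Mili+/- (-0.07), and Rps7 had 2655 in Mili-/- and 2450.2 in Mili+/- (0.01). Rpsa, also known as the laminin receptor, had 764 in Mili-/- and 771 in Mili+/- (-0.12), 0.0035 above the median of all genes. Rps10 stood at -0.16, Rps3a1 at -0.11 and Rps29 at -0.05, the last with signals of 49.7 in Mili-/- and 47.7 in Mili+/-, just inside the filter.

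Rps24 needs a caution. Its brightest probe set, with 2634 in Mili-/- and 2986 in Mili+/- (-0.29), carries the same sequence accession as the probe set of Rpl7, and the annotation assigns it to Rps24. The other probe set of Rps24 was dim, at 23.7 in Mili-/- and 13.0 in Mili+/- (0.76), and whether the bright one reads Rps24 or Rpl7 was not tested. The Rpl7 probe set has a suffix that marks shared sequence, and the other probe set of Rpl7 was listed at 2.2 on both arrays, so the value given for Rpl7 carries the same caution. Without Rps24 the median of the members was -0.05.

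The X-linked member past the filter, Rps4x, had 1965 in Mili-/- and 1869 in Mili+/- (-0.04), and its 4 further probe sets were all under the filter, at signals of 16.7 or less. Rps4l, its relative that RefSeq types as a transcribed pseudogene, was the lowest member, with 505 in Mili-/- and 679 in Mili+/- (-0.54, or 0.689 times). The suffix of that probe set marks sequence shared with other transcripts. A second probe set of Rps4l, under the filter, went the other way with 31.5 in Mili-/- and 20.5 in Mili+/- (0.51), and the mean over both was -0.01. Without Rps4l the lowest member was Rps24 at -0.29, and the median of the remaining 25 was -0.05.

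Paralogs of core ribosomal proteins differed in direction. Rpl39l, the germ cell paralog of the X-linked Rpl39, had 285 in Mili-/- and 314 in Mili+/- (-0.25), and its X-linked partner was too dim to compare. Rpl7l1, a paralog of Rpl7, had 102 in Mili-/- and 85.3 in Mili+/- (0.15), while the probe set assigned to Rpl7 stood at -0.23. Rps27l, a p53 target in human cells, was dim at 8.1 in Mili-/- and 2.0 in Mili+/-.

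The 9 members that did not pass were Rpl32, Rpl35a, Rpl38, Rpl39, Rps13, Rps14, Rps15, Rps20 and Rps27l. Their signals ran from 4.5 to 21.8 in Mili-/- and from 2.0 to 15.1 in Mili+/-, and 6 of the 9 Mili+/- signals were under the floor of 6.3 that was applied to that array. Rpl35a had 21.8 in Mili-/- and 8.9 in Mili+/-, Rps15 had 12.3 in Mili-/- and 5.4 in Mili+/-, and Rpl38 had 11.2 in Mili-/- and 5.6 in Mili+/-. As deposited, 8 of the 9 were higher in Mili-/-, all but Rpl32, against 59.5% of the 3147 other genes that did not pass. After flooring, Rpl35a, Rps15 and Rpl38 exceeded 1.5-fold, as did 12.2% of those other genes. The 20th percentile of all signals, used as the floor, was 7.0 in Mili-/- and 6.3 in Mili+/-. A dim probe set says nothing about how much of its mRNA was present.

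**Figure D2:**
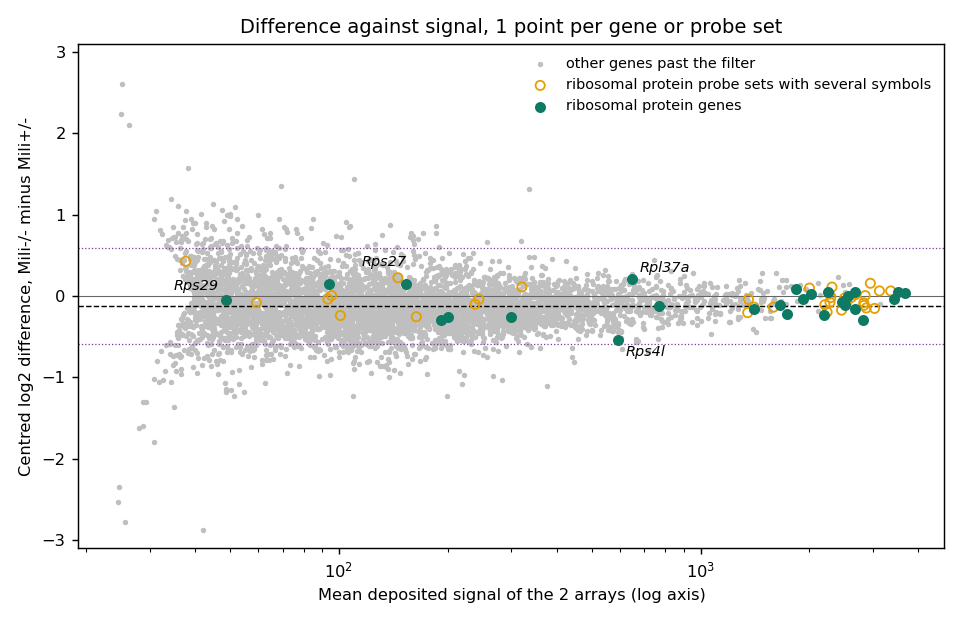
Centred log2 difference (Mili-/- minus Mili+/-) against the mean deposited signal of both arrays (log axis), for ribosomal protein genes (green), ribosomal protein probe sets annotated to several symbols (open orange) and the other genes past the filter (grey). The dashed line marks the median of all genes (-0.13), the solid line 0 and the dotted lines 1.5-fold, and all 26 ribosomal protein genes lie between the dotted lines, with Rps4l (-0.54) nearest to the lower one.

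Many ribosomal protein genes have processed pseudogenes, and 39 further probe sets carried several symbols of which at least 1 was a ribosomal protein gene. They lie outside the rule and cannot be assigned to a single transcript, but they cover 34 ribosomal protein symbols of which only Rps27 was also a member. Of the 39, 33 passed the filter, with a median difference of -0.04 and a range of -0.25 to 0.43. Of the 33, 0 were 1.5-fold higher or lower, against 2.47% of all genes higher and 5.04% lower. The probe set of Rplp1, an acidic stalk protein, had 3219 in Mili-/- and 2674 in Mili+/- (0.16). That of Rps6, the small subunit protein phosphorylated downstream of mTOR, had 2983 in Mili-/- and 3071 in Mili+/- (-0.15). That of Rpl5, which carries the small ribosomal RNA into the large subunit and binds Mdm2, had 2144 in Mili-/- and 1856 in Mili+/- (0.10). A bright probe set assigned to Rps27 and its retrogene Rps27rt had 2484 in Mili-/- and 2132 in Mili+/- (0.11), on the same side as the 0.15 of the Rps27 probe set. Among paralogs, the probe set of Rpl22l1 stood at -0.04 and that shared by Rpl36a and Rpl36al at -0.25. The highest of the 33, at 0.43, was a probe set of Rpl12 with 44.7 in Mili-/- and 30.8 in Mili+/-, which passed the filter only through Mili-/-. A brighter one of Rpl12, at 249.9 in Mili-/- and 238 in Mili+/-, stood at -0.04.

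The start sites of the members at each end of the range are shown because the pyrimidine tract at the start of the mRNA is the feature through which these genes are known to be regulated together. RefSeq promoter entries of assembly GRCm38.p6 were found for 28 of the 35 members. Each line gives 30 bases before and 30 bases from the annotated start, 5′ to 3′ on the gene's strand, with runs of at least 5 pyrimidines in capitals. The first 4 are the highest members with an entry and the last 4 the lowest, with Rps24 left out for its shared accession. Where a gene had several annotated starts, the first listed was taken.
Rpl37a, chr1:72711230-72711289, plus strand: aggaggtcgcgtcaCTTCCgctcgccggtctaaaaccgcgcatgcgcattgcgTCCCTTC
Rpl7l1, chr17:46782627-46782686, minus strand: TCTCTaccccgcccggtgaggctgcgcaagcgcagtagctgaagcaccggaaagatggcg
Rps27, chr3:90213619-90213678, minus strand: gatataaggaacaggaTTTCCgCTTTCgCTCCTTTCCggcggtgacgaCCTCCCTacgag
Rps3, chr7:99483680-99483739, minus strand: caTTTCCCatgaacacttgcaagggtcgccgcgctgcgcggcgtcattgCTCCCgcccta
Rpl22, chr4:152325696-152325755, plus strand: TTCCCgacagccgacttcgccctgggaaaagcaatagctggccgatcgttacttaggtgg
Rpl13a, chr7:45128716-45128775, minus strand: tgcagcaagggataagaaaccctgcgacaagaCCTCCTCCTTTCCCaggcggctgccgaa
Rpl39l, chr16:10170198-10170257, plus strand: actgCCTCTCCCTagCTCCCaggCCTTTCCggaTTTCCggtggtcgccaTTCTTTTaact
Rpl10a, chr17:28328441-28328500, plus strand: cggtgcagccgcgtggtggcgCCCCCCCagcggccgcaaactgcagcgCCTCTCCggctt

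Runs of at least 5 pyrimidines occurred at both ends of the range, and how often they occur in other genes was not counted. The longest, of 14 bases, lies just after the annotated start of Rpl13a, one of the lowest members, and a run of 9 bases spans the start of Rps27, one of the highest. No other run shown spans an annotated start. In windows of 250 bases before and 50 bases from each start, CTTTCC on the transcribed strand was found for 14 of the 28 members with an entry (50.0%), against 16.0% of 27025 genes. Those genes are not limited to the 8251 named on the array, and no comparison matched for expression or base composition was made. CCGGAAG, the core bound by ETS factors such as GABPA, was found on either strand for 12 of 28 (42.9%, against 9.93% of genes). AAGATGG, which holds the core bound by YY1, was found on either strand for 7 of 28 members, against 7.28% of genes, and TATAAA on either strand for 4 of 28 (14.3%, against 15.7%). Where motifs adjoin, CTTTCC can share up to 2 bases with CCGGAAG, and AAGATGG up to 3 with either, and a match describes letters and not a bound site. Of the 4 highest members shown, 1 holds CTTTCC in the printed 60 bases, and of the 4 lowest, 2 do.

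Genes that act with the ribosome were set beside the members. Other genes whose mRNAs begin with a TOP tract, chiefly translation factors, had a median of -0.15 over the 12 of 22 listed that passed. None of the 12 was 1.5-fold changed, against 2.47% of all genes higher and 5.04% lower, shares that amount to few genes among 12. The highest were Eef1a1, the elongation factor that delivers aminoacyl tRNA (3645 in Mili-/- and 3283 in Mili+/-, 0.04), and Eef2, the translocase (1514 in Mili-/- and 1454 in Mili+/-, -0.05). The lowest were the splicing regulator gene Hnrnpa1 (44.2 in Mili-/- and 56.0 in Mili+/-, -0.45) and Btf3 (473 in Mili-/- and 587 in Mili+/-, -0.42). Fau, which encodes a ribosomal protein fused to a ubiquitin-like domain and does not match the rule, was too dim to compare.

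Ribosome biogenesis genes had a median of -0.14 over the 48 of 56 listed that passed. None was 1.5-fold changed, against 2.47% of all genes higher and 5.04% lower, shares that amount to few genes among 48. Imp4, a protein of the small subunit processome, had 137 in Mili-/- and 88.1 in Mili+/- (0.53), and Utp20 stood at 0.32. The assembly factor gene Ltv1, with 63.3 in Mili-/- and 87.0 in Mili+/- (-0.57), and the box C/D protein gene Nop58, with 136 in Mili-/- and 180.1 in Mili+/- (-0.51), were lowest. The mitochondrial ribosomal proteins, which serve a separate ribosome, had a median of -0.17 over 56 of 61 genes. Of the 56, 3 were 1.5-fold lower or more, close to the 5.04% of all genes, and 0 as much higher (2.47% of all genes). Mrpl3 (0.51) and Mrpl11 (0.22) were the highest, and Mrps10 (83.0 in Mili-/- and 135.9 in Mili+/-, -0.82) and Mrpl46 (49.7 in Mili-/- and 76.1 in Mili+/-, -0.72) the lowest. The median signal in Mili-/- was 144 for the biogenesis genes and 160 for the mitochondrial ribosomal proteins, against 1961 for the cytosolic ribosomal proteins, and the part of signal in the lists' medians was not tested.

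**Figure D3:**
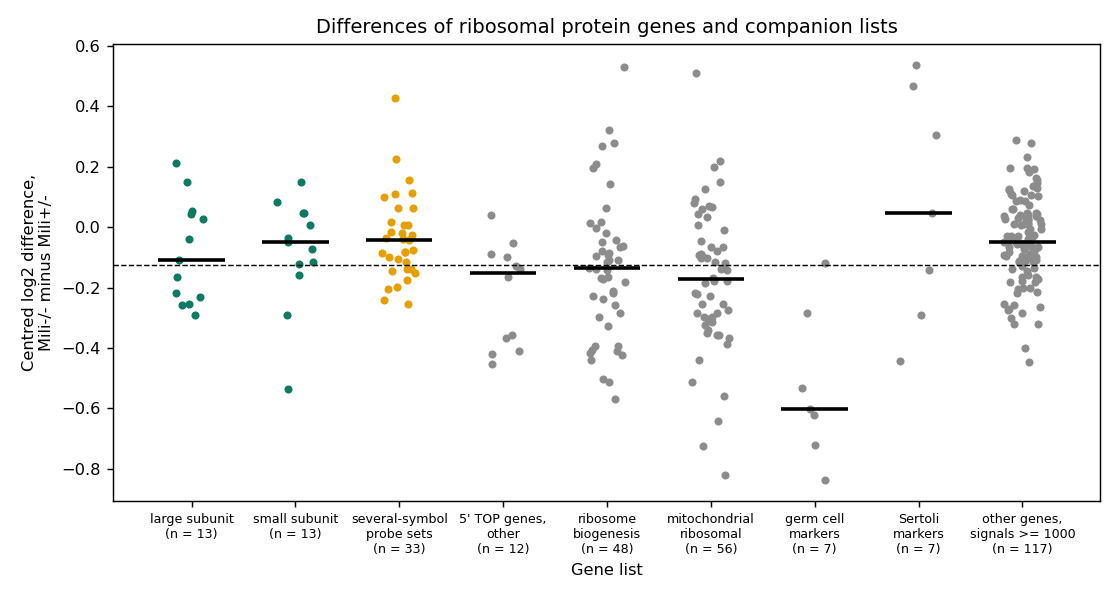
Centred log2 differences (Mili-/- minus Mili+/-), 1 point per gene or probe set past the filter, with a bar at each list's median and a dashed line at the median of all genes (-0.13). The large subunit median (-0.11) lies close to the dashed line and the small subunit median (-0.05) at that of other genes with signals of at least 1000 (-0.05), while germ cell markers lie lower (-0.60).

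The median of the germ cell markers lay further from 0 than that of the ribosomal proteins. Of 8 germ cell markers, 7 passed, with a median of -0.60, all 7 below 0 (68.9% of all genes) and 4 at least 1.5-fold lower in Mili-/- (5.04% of all genes). The lowest of them, Sall4 (34.7 in Mili-/- and 57.4 in Mili+/-, -0.84), passed only through Mili+/-, so the filter favoured its low value. Summed over the 7 germ cell markers, the deposited signal was 2071 in Mili-/- and 2507 in Mili+/-. Most of that sum came from Dazl, with 1191 in Mili-/- and 1342 in Mili+/-. The 7 Sertoli cell markers past the filter had a median of 0.05, from Inhbb at -0.44 to Amh at 0.54, and the 4 adipocyte markers past it a median of 0.77. Of the adipocyte markers, Car3 (101.4 in Mili-/- and 36.7 in Mili+/-), Adipoq (52.7 and 26.2) and Fabp4 (56.9 and 33.9) passed only through Mili-/-. The filter thus favoured high values in that list, whereas the ribosomal protein genes compared had passed on both arrays. Medians were -0.29 over 4 Leydig markers, -0.21 over 2 peritubular markers, 0.55 over 2 erythroid markers and -0.07 over 4 macrophage markers. Among these, the erythroid marker Alas2 (65.1 in Mili-/- and 34.1 in Mili+/-) passed only through Mili-/-. The Leydig marker Star (35.5 in Mili-/- and 38.5 in Mili+/-) passed only through Mili+/-. In whole testis, fewer cells of a type and less RNA per cell cannot be told apart. Ribosomal proteins are made by all of these cells, and the part of cell composition in their values was not tested. Sycp3, a defining marker of meiotic cells, was listed at 0.6 in Mili-/- and 1.1 in Mili+/-, and the Leydig marker Insl3 was also under the filter.

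The control probe sets for 18S ribosomal RNA, the RNA of the small subunit, gave no common direction. Signals were 1386 in Mili-/- and 1441 in Mili+/- at the 3′ end (-0.17), 500.4 in Mili-/- and 558 in Mili+/- in the middle (-0.27) and 256 in Mili-/- and 182 in Mili+/- at the 5′ end (0.38). Since polyadenylated RNA was hybridised, these signals do not measure the amount of ribosomes, and the cause of their differing directions was not tested. Summed over all 35 members, the deposited signal was 2.81% of all non-control signal in Mili-/- and 2.76% in Mili+/-.

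The sign of the small median difference depended on scaling. As deposited, without centring, the median of the 26 members was 0.05 and that of all genes -0.02. After quantile normalization the members stood at -0.04 and all genes at -0.01, and after a loess fit on signal at -0.02 and -0.01. Centring shifts the differences of all genes past the filter alike, so the members lay 0.06 above the median of all genes with or without it by construction. After the corrections that follow signal, the members stood at -0.04 (quantile) and -0.02 (loess) relative to that median. Under none of these 4 scalings was any of the 26 members 1.5-fold higher or lower.

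**Figure D4:**
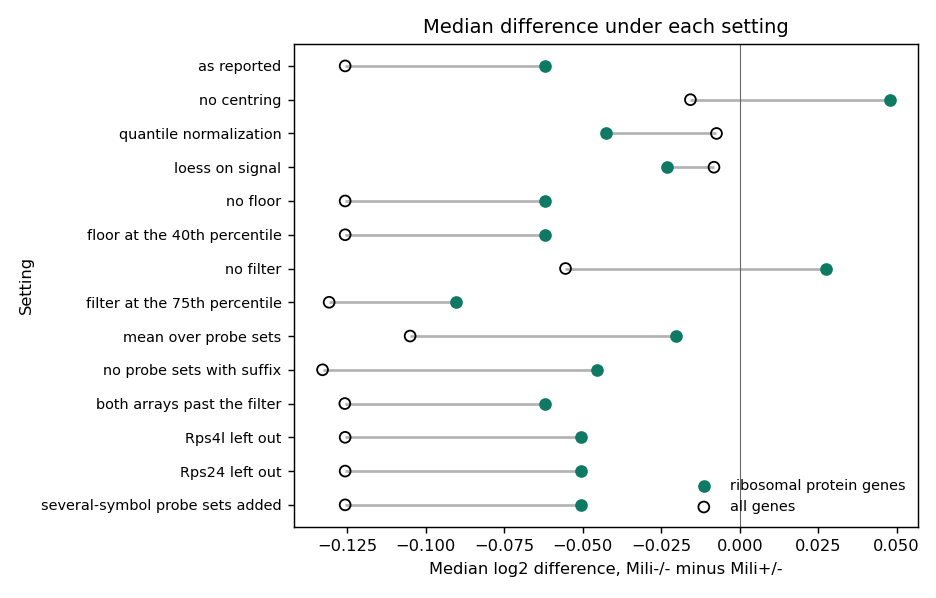
Median log2 difference (Mili-/- minus Mili+/-) of the ribosomal protein genes (green) and of all genes compared (open) under each setting. The medians of the ribosomal protein genes stay between -0.09 and 0.05, and their order relative to all genes turns under quantile normalization and loess.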

How the data were processed

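The authors' deposited table holds 1 linear signal intensity per probe set and array, for 12488 probe sets of which 66 are controls. Software and background correction: not given in the sources used here. The values appear scaled to a common level, since the mean without the lowest and highest 2% was near 100 on both arrays (100.05 in each). Symbols came from a platform annotation table, updated through the Entrez ID to RefSeq names of GRCm38.p6. Of 12422 non-control probe sets, 10833 had 1 symbol, 396 several and 1193 no row.

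Signals were floored at each array's 20th percentile, log2-transformed and centred on the array's median, which removed a shift of 0.11. A gene took its brightest single-symbol probe set. The members, lists and thresholds were chosen with earlier results of these data known. Named genes were the 6 highest and 6 lowest members, all dim members, members with further probe sets, paralogs, X-linked members, Rplp, Rpsa, Rps6, Rps19, Rpl5 and Rpl11 where measured, and the 2 highest and lowest of each companion list. The code was tested on simulated data. Python 3.11.15, NumPy 2.4.6, pandas 2.3.3, SciPy 1.17.1 and statsmodels 0.14.6 were used.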

Additional observations from a re-analysis of the deposited data

How the results depend on the processing

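The finding that no member past the filter was 1.5-fold or 2-fold changed held under every setting tried that kept a filter. With no filter, which admits the 9 dim members, 3 of 35 were 1.5-fold changed and 1 was 2-fold changed. All of these were dim members higher in Mili-/-, and 12.2% of the other genes that did not pass were 1.5-fold higher. The shares over all genes without a filter were not computed, so these counts are not a result about the members. The medians of all members and of the large and small subunit genes changed sign to 0.048, 0.0027 and 0.059 without centring and to 0.028, 0.028 and 0.026 with no filter. The small subunit median changed sign to 0.0023 after loess and to 0.0059 with the mean over probe sets. The members' median minus that of all genes was 0.06 as reported and turned to -0.035 after quantile normalization and -0.015 after loess. The number of members below the median of all genes was 9 as reported, 16 after quantile normalization, 14 after loess and 18 of 59 when probe sets with several symbols were added. That addition, leaving out Rps4l or Rps24, and requiring both arrays to pass were chosen after seeing the data. With the mean over probe sets, which takes in dim ones, Rps24 stood at 0.23 and Rps4l at -0.01. Named members near 0 changed sign with scaling, without centring to 0.07 for Rplp0, 0.04 for Rps19 and 0.07 for Rps4x, and after loess to 0.01 for Rps4x. Settings of floor, filter and left-out genes cannot move the value of a single member past the filter. The floor does enter the values of dim members with a signal under it, such as Rps27l. The cause of these changes was not tested. With 1 array per genotype no replicate could be left out. No paired analysis was possible because each genotype had 1 array.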
